A study of Homo sapiens with 8 samples.

Results

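RNA from SK-N-SH cells with ZMYND8 knockdown was compared with RNA from KD control cells, all of them treated with all-trans retinoic acid (ATRA). The 4 libraries were chosen by their labels, as 4 of the 8 libraries in the series, and they form 2 groups of 2 libraries labelled as biological replicates. SK-N-SH is a human neuroblastoma line. Both groups received 10 μM ATRA for 24 h in differentiation medium, and their labels name no doxycycline (Dox). The KD control libraries carry the titles CONTROLI_RA and CONTROLII_RA, and the sources used here do not say whether they hold 1 control construct or different ones. According to the methods, knockdown used short hairpin RNA (shRNA) plasmids delivered by lentivirus, chosen in a screen of several plasmids. The selection doses given there are for SH-SY5Y cells and neural stem cells. Knockdown of SK-N-SH cells is not named, so its use for these libraries is assumed. The hairpin sequences and whether more than 1 was used here are not given in the sources used here. The other 4 libraries hold parental cells with Dox and cells overexpressing ZMYND8 with Dox, both with ATRA, and enter only where named.

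ZMYND8 is a nuclear protein that reads histone tails through a PHD finger, a bromodomain and a PWWP domain, and it carries a MYND zinc finger that binds partner proteins. It is known to associate with the NuRD chromatin remodelling complex, with histone demethylases and with transcription elongation factors, and it has been described both as a repressor and as a coactivator. ATRA binds nuclear retinoic acid receptors and drives neuroblastoma cells towards a neuron-like state. Neuroblastoma lines hold cells of an adrenergic state, with HAND2 and GATA3, and of a mesenchymal state, with PRRX1, YAP1 and matrix genes. SK-N-SH is known as a mixture of both.

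Each library held 54254164 to 56256979 counts on genes, and 29297 to 29742 genes had at least 1 count. The replicates of each group differed by more than counting noise, with a chi-square per degree of freedom of 8.86 in KD control and 8.32 in ZMYND8 knockdown. The adrenergic markers PHOX2A, HAND2, GATA3 and ISL1 each had over 1000 counts in every library, as did the mesenchymal markers PRRX1, VIM, FN1, CD44 and YAP1. TH, the enzyme that makes L-DOPA, had 0 counts in all 4 libraries. Of the markers of other cells, SOX10, FOXD3, CD3E, CDH1 and KRT5 had 0 counts in every library and PTPRC had at most 2. Other such markers were expressed. Among 8 listed epithelial markers 5 were tested, with summed normalized counts of 19620 to 24190 per library. Among 8 markers of Schwann cells and glia 5 were tested, with sums of 1175 to 1462. Among 8 endothelial markers 7 were tested, with sums of 603 to 740. CSF1R and PECAM1, listed as leukocyte and endothelial markers, were called in opposite directions and are given with the receptors. In bulk RNA, fewer cells of a type and less RNA per cell cannot be told apart.

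ZMYND8 itself (ENSG00000101040, chromosome 20 of GRCh38 from 47209214 to 47356889, minus strand) had 3128 and 3374 counts in KD control and 1641 and 1640 in ZMYND8 knockdown. The groups did not overlap, which also held for 11113 of 17136 genes whose mean normalized count exceeded 20, so it is common here. For ZMYND8 the 2 knockdown libraries differed by 1 count. The log2 fold change was -0.94 (SE 0.056, adjusted p = 2.20e-06 by the quasi-likelihood test of edgeR, Benjamini-Hochberg adjusted), which is 1.91-fold lower. Refits that each dropped 1 library gave -0.96 to -0.92. ZMYND8 RNA was thus reduced and not lost, and ZMYND8 itself missed the 2-fold threshold for a call.

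Of 19789 genes tested, 2653 (13.4%) were higher and 2146 (10.8%) lower in ZMYND8 knockdown at an adjusted p below 0.05. A gene was called when its fold was also at least 2 and its mean normalized count above 20. By this rule 270 genes (1.36%) were called higher and 118 (0.596%) lower. Protein-coding genes made up 181 of the 270 and 91 of the 118, and lncRNAs 67 and 21. The median log2 fold change of all tested genes was -0.01. In 243 of the 388 called genes, the fold stayed at 2 or more in the same direction when any 1 library was left out. Of the 388, 174 had a mean above 100. Genes with over 50% of their exonic 31-base sequences also on an alternate contig of the reference, whose reads are hard to place, were 8 of those called higher and 12 of those called lower. Among all 17136 genes tested with a mean above 20 they were 1.89%, against 2.96% and 10.2% of the called genes.

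**Figure D1:**
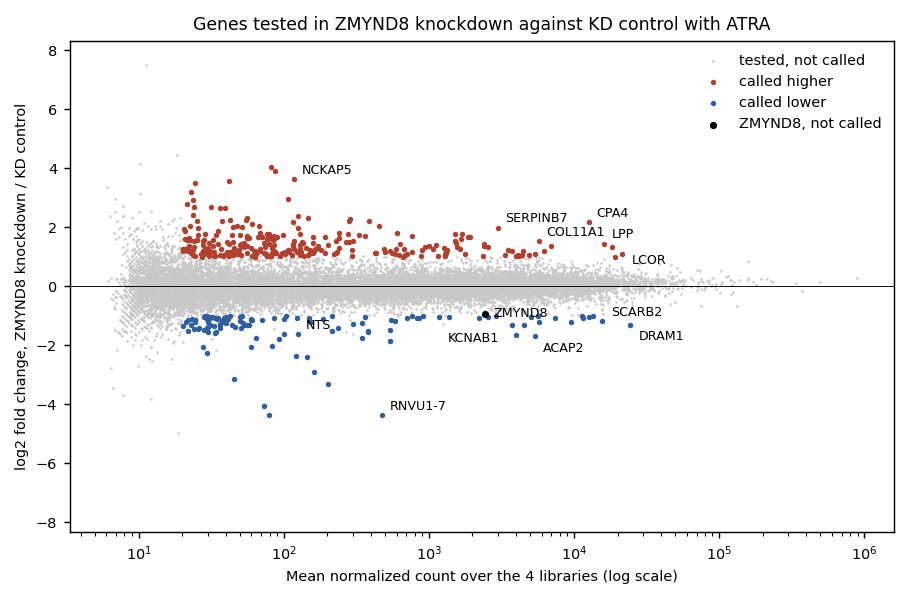
Each point is 1 tested gene, with its mean normalized count over the 4 libraries on the x axis (log scale) and its log2 fold change in ZMYND8 knockdown against KD control on the y axis. The 270 genes called higher are red and the 118 called lower blue, and ZMYND8 (black, -0.94) lies just short of the 2-fold threshold.

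The largest increases among protein-coding genes with ample and reproducible counts were in NCKAP5, ODAPH, YTHDC1, IVL, CPA4 and SERPINB7. NCKAP5 (ENSG00000176771, chromosome 2 from 132671788 to 133568463) had 20 and 16 counts in KD control and 206 and 226 in ZMYND8 knockdown, a log2 fold change of 3.62 (SE 0.22, adjusted p = 2.25e-06). CPA4, a secreted carboxypeptidase (ENSG00000128510, chromosome 7 from 130293134 to 130324180), had 4826 and 4583 counts in KD control and 21777 and 18899 in ZMYND8 knockdown. Its log2 fold change was 2.16 (SE 0.076, adjusted p = 2.30e-07), and it stayed between 2.05 and 2.26 with any library left out. Genes were eligible for this set only if their groups did not overlap.

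SERPINB7, a serine protease inhibitor of epithelia, had 1312 and 1125 counts against 4872 and 4476 in ZMYND8 knockdown, a log2 fold change of 1.99. IVL, the involucrin of the cornified envelope of skin, had 114 and 91 against 537 and 381, with a log2 fold change of 2.21. ODAPH, a phosphoprotein gene of tooth enamel formation, had 40 and 42 against 206 and 209, a log2 fold change of 2.39. These 3 are genes best known from epithelia or teeth. YTHDC1, a nuclear reader of methylated adenosine in RNA, had 101 and 100 against 438 and 495, but 100% of its exonic 31-base sequences also lie on an alternate contig, so its reads are hard to place. MYH16, a myosin heavy chain pseudogene in humans, had 24 and 26 counts against 163 and 211, a log2 fold change of 2.95.

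Among lncRNAs, 15 met the same conditions for a reproducible increase and 0 for a decrease, whereas 21 lncRNAs were called lower in all. LINC01204 had 36 and 64 counts in KD control and 240 and 238 in ZMYND8 knockdown, a log2 fold change of 2.31 that ranged from 1.98 to 2.74 without 1 library. LIF-AS2, an antisense transcript at the LIF locus, had 38 and 47 against 206 and 169, a log2 fold change of 2.19. LIF, the cytokine gene at this locus, rose by 0.28 on the log2 scale. On chromosome 21, ENSG00000235609 (127 and 156 against 644 and 608) and LINC02246 (175 and 187 against 730 and 697) overlap each other, with 27.7% and 42.8% of their exon bases shared with a gene of the same strand, so they cannot be counted as independent. LINC01173 had 39 and 65 counts against 190 and 201. The same condition of no overlap between the groups applied to these lncRNAs.

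The called genes with the highest counts that rose were LCOR, RN7SL5P, RO60, LPP, CPA4, PODXL, ANKRD1 and COL11A1. LCOR, a ligand-dependent corepressor of nuclear receptors, had 13238 and 14728 counts in KD control and 29833 and 28187 in ZMYND8 knockdown, a log2 fold change of 1.10 (SE 0.057). RO60 encodes the Ro protein that binds Y RNAs and misfolded small RNAs. It had 9783 and 11465 against 25943 and 25360 counts, a log2 fold change of 1.32 (SE 0.062). RNY1, a Y RNA, was called as well, with 16 and 18 against 26 and 50 counts, but its log2 fold change of 1.20 (SE 0.38, adjusted p = 0.041) moved to 0.66 in the weakest fit with 1 library left out.

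LPP, a LIM protein of focal adhesions, had 7999 and 9774 counts against 24818 and 21486, a log2 fold change of 1.43 (SE 0.085). PODXL, a cell surface sialomucin, had 4136 and 3707 against 10685 and 8923, a log2 fold change of 1.37. ANKRD1, a nuclear ankyrin repeat protein and classical target of the coactivator YAP, had 3979 and 3772 against 8582 and 8459, a log2 fold change of 1.18. RN7SL5P, a 7SL pseudogene whose reads can belong to the 7SL genes, had 17107 and 8636 counts against 29440 and 20797. Its replicates spread widely, and its log2 fold change of 1.00 ranged from 0.57 to 1.62 when 1 library was left out, whereas the other 7 had SE of at most 0.091.

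Under the same conditions, the largest decreases were in genes whose reads are hard to place and genes without that limit. RNVU1-7, a variant U1 small nuclear RNA gene, had 335 and 1550 counts in KD control and 50 and 36 in ZMYND8 knockdown, TAF15 had 1194 and 525 against 245 and 214, and BFAR 588 and 493 against 92 and 215. For RNVU1-7 65.7%, and for TAF15 and BFAR 100%, of the exonic 31-base sequences also lie on an alternate contig. The same share was 91.9% for IFNGR2, the second chain of the interferon gamma receptor, with 573 and 582 against 224 and 167 counts. It was 90.9% for SBNO2, with 687 and 939 against 348 and 216. The KD control replicates of RNVU1-7 and TAF15 differed from each other more than 2-fold.

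ACAP2, a GTPase-activating protein for ARF6 in endosome traffic (ENSG00000114331, chromosome 3 from 195274745 to 195443044), had 8070 and 8752 counts in KD control and 2513 and 2570 in ZMYND8 knockdown. Its log2 fold change was -1.68 (SE 0.051, adjusted p = 1.50e-07), with the smallest SE among the 12 largest decreases, and it stayed between -1.71 and -1.65 with any library left out. KCNAB1, an auxiliary beta subunit of voltage-gated potassium channels (ENSG00000169282, chromosome 3 from 156037701 to 156539138), had 6315 and 6009 against 1940 and 1836, a log2 fold change of -1.66 (SE 0.062). On average ACAP2 was 3.20-fold and KCNAB1 3.16-fold lower, with the 2 knockdown libraries close to each other.

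NTS, the neurotensin precursor, had 199 and 188 counts against 60 and 60, a log2 fold change of -1.64 (SE 0.17). TRIP6, a LIM protein of focal adhesions, had 158 and 151 against 44 and 54. BHLHA15, a transcription factor of secretory cells, had 608 and 542 against 216 and 166, with 25.6% of its exon bases opposite another gene. POSTN, the matrix protein periostin, had 292 and 354 against 98 and 121, and GPAT3, an acyltransferase of glycerolipid synthesis, had 334 and 362 against 142 and 111. All 5 had log2 fold changes between -1.64 and -1.41.

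The 8 called genes with the highest counts that fell were DRAM1, SCARB2, ATL3, SSR3, XPR1, SAR1A, MXRA5 and THSD4. DRAM1, a lysosomal membrane protein of autophagy, had 35691 and 34678 counts in KD control and 13889 and 13215 in ZMYND8 knockdown, a log2 fold change of -1.33 (SE 0.058). SCARB2, the lysosomal receptor that delivers glucocerebrosidase, had 21142 and 22689 against 9191 and 9487, a log2 fold change of -1.18 (SE 0.051). SAR1A, a GTPase that starts COPII vesicles at the endoplasmic reticulum (ER), had 13401 and 13767 against 5459 and 5816, a log2 fold change of -1.22. ATL3, an ER-shaping GTPase, had 18107 and 18645 against 8817 and 8699. SSR3, a subunit of the translocon-associated protein complex, had 17525 and 17492 against 8191 and 8212, with 20.8% of its exon bases opposite another gene. XPR1, the phosphate exporter, had 15734 and 16224 against 7236 and 7378. For ATL3, SSR3 and XPR1 the log2 fold changes were -1.02, -1.05 and -1.08. The matrix-related genes MXRA5 (14544 and 16628 against 7880 and 6925) and THSD4 (10283 and 10201 against 4889 and 4457), completed the 8 genes. MXRA5, at -1.02, moved to -0.93 in the weakest fit with 1 library left out.

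**Figure D2:**
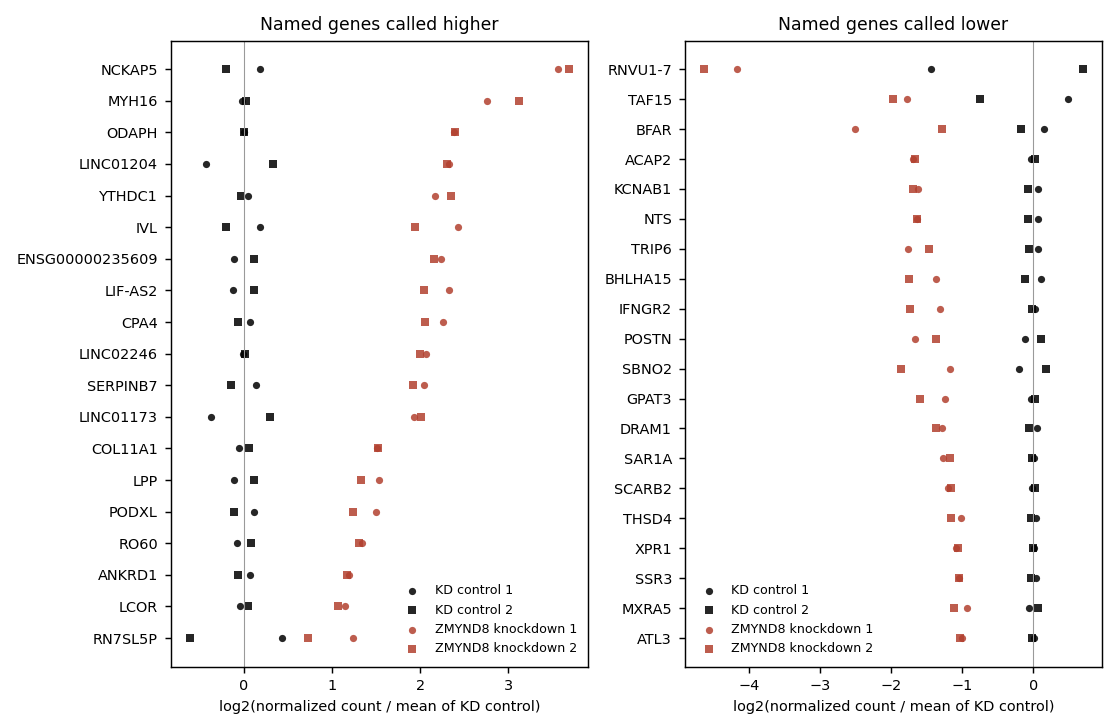
Each row is a gene named for its size of change or its high counts, and each point is 1 library, plotted as log2 of its normalized count over the KD control mean (black: KD control, red: ZMYND8 knockdown, circles replicate 1, squares replicate 2). The knockdown points of ACAP2 and KCNAB1 lie close together near -1.7, whereas the KD control points of RNVU1-7 and TAF15 lie far apart.

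A heptamer picked by the fold changes of these libraries was more frequent in the 3′UTRs of genes called lower than in those of all genes. Of 16384 possible heptamers, 11605 were found in at least 500 genes and ranked by the mean log2 fold change of genes that hold them in the 3′UTR minus that of genes that do not, over 13206 genes with a mean above 20. CAGAATG ranked lowest, with a difference of -0.089, and the overlapping heptamer AGAATGA came next with -0.059. GAATATA ranked highest, with a difference of 0.12. The ranking is a description of these 4 libraries and was used to pick the heptamers, so no test was made of them. Both kept their first places over the 11856 genes with a mean above 100 and over the 12934 genes that were not called. These are subsets of the same 13206 genes with the same values, so the repeat adds no independent support. The 12 named genes called lower that hold CAGAATG have 19 sites, 9 with a following A and 10 without. Shown are the 9 with the A, and for KCNAB1 also the other site, read from GENCODE release 44 transcripts on GRCh38, 5′ to 3′, with CAGAATG and a following A in capitals. POSTN, ATL3 and IFI44L have only sites without the A.
ACAP2, chr3:195275942-195275971, minus strand: gattgtatgtcCAGAATGActttagaaccg
KCNAB1, chr3:156538437-156538466, plus strand: gcccgtgttatCAGAATGAtggaaattgat
KCNAB1, chr3:156537441-156537469, plus strand: tacaacttatcCAGAATGtctattaggat
IFNGR2, chr21:33437155-33437184, plus strand: aaatcaaattcCAGAATGAttttacggaga
GPAT3, chr4:83604866-83604895, plus strand: aatcttttctaCAGAATGAttgtctctacc
SCARB2, chr4:76160529-76160558, minus strand: cattttgctgaCAGAATGAtggatgtttaa
SSR3, chr3:156542771-156542800, minus strand: accgtaaatatCAGAATGAatcctcttccc
XPR1, chr1:180884701-180884730, plus strand: acttaaccataCAGAATGAtataactcctg
MXRA5, chrX:3309686-3309715, minus strand: aatgtggattcCAGAATGAttgcttaggaa
THSD4, chr15:71782479-71782508, plus strand: aactctatctgCAGAATGAgtcactacacc

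CAGAATG was present in the 3′UTR of 30 of 91 genes called lower (33.0%), 32 of 181 called higher (17.7%) and 2327 of all 13206 genes (17.6%). The median log2 fold change was 0.02 in the 10879 genes with 0 copies, -0.06 in the 1872 with 1, -0.12 in the 355 with 2 and -0.19 in the 100 with 3 or more. The share of genes that fell at an adjusted p below 0.05 went from 11.4% to 26.1%, 33.5% and 44% along the same classes. With a following A in at least 1 copy, the median was -0.13 over 790 genes, against -0.05 over the 1537 genes whose copies lack it. Genes with the heptamer in the coding sequence only had a median of -0.0028, over 2076 genes, and 14.5% of them fell. The 8803 genes with it in neither region had a median of 0.02, and 10.7% of them fell. Long 3′UTRs hold more heptamers, and the difference was seen at every length. With 3′UTRs split into 4 classes of length, the median in the shortest class was -0.18 with the heptamer and -0.01 without, and in the longest it was -0.04 and 0.05.

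The heptamer leading among genes that rose gave the opposite picture. GAATATA was present in 52 of 181 genes called higher (28.7%), 9 of 91 called lower (9.89%) and 15.6% of all genes. The medians were -0.01, 0.07, 0.12 and 0.19 for 0, 1, 2 and 3 or more copies, and the share of genes that rose at an adjusted p below 0.05 went from 14.9% to 45.3%. The named genes RO60, LPP, LCOR and ITGB8 each hold 3 copies, in long 3′UTRs of 6488, 16192, 10822 and 5757 bases. The median 3′UTR of all genes has 1383 bases. LCOR and PODXL, called higher, also hold CAGAATG once, and GPAT3, ATL3 and THSD4, called lower, hold GAATATA once. Shown is 1 copy each of RO60, LPP, LCOR and ITGB8, with the heptamer, and a following A where there is one, in capitals.
RO60, chr1:193086464-193086492, plus strand: agcattgaactGAATATAttagctacttt
LPP, chr3:188877369-188877398, plus strand: aaaagtatcagGAATATAAatatttggtaa
LCOR, chr10:96988833-96988861, plus strand: aaatgtgtttgGAATATAgccacacccat
ITGB8, chr7:20415391-20415420, plus strand: attaaatatttGAATATAAaatagctctaa

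**Figure D3:**
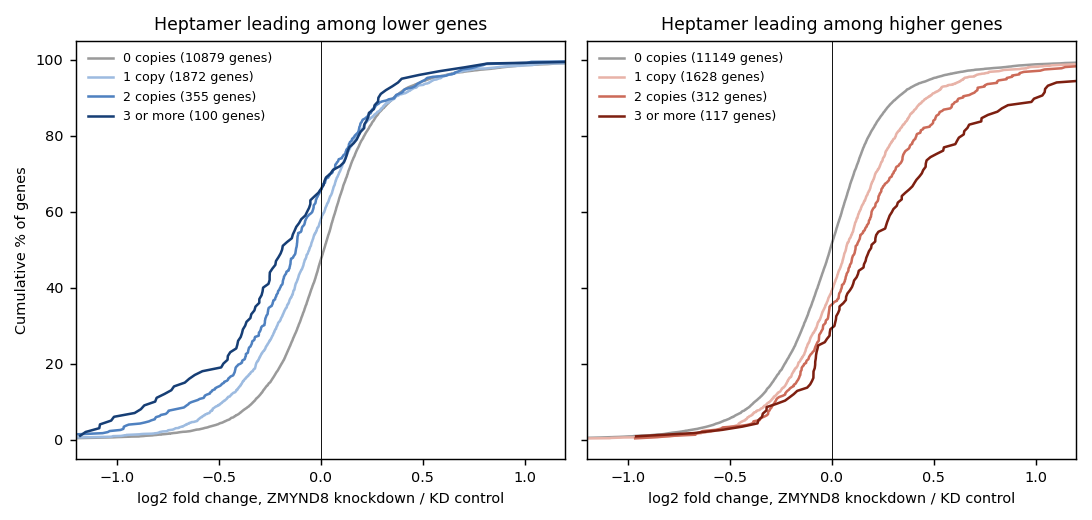
Cumulative % of genes (y axis) by log2 fold change in ZMYND8 knockdown against KD control (x axis), for genes with 0, 1, 2 and 3 or more copies in the 3′UTR of the heptamer leading among lower genes (left) and among higher genes (right). On the left the curves shift to lower values as copies increase, to a median of -0.19, and on the right to higher values, to a median of 0.19.

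Small RNAs bound by Argonaute, such as miRNAs or the guide strand of an shRNA, are known to lower mRNAs whose 3′UTR pairs with their bases 2 to 8, more so where an A follows the site. The heptamers would pair with the seeds CAUUCUG and UAUAUUC, and 0 of 2370 human mature miRNAs in the RefSeq table carry either at bases 2 to 8. Of all 13206 genes, 2076 hold CAGAATG in the coding sequence only, among them ZMYND8, with 2 copies there and 0 in its 3′UTR. The copies of ZMYND8 are shown because it is the target of the knockdown, with the heptamer in capitals.
ZMYND8, chr20:47294749-47294777, minus strand: aattacagtagCAGAATGcatcgagaccc
ZMYND8, chr20:47283609-47283637, minus strand: cgaagtatgtcCAGAATGttatctagctg
Since the hairpin sequences are not given in the sources used here, their part in the result was not tested. Each library was also set against the mean of the parental libraries, which belong to another experiment, so batch and group cannot be told apart there. Genes with CAGAATG minus genes without it had a difference of medians of 0.08 and 0.11 in KD control and 0.02 and 0.03 in ZMYND8 knockdown. For GAATATA the values were 0.03 and 0.08 in KD control and 0.14 and 0.17 in ZMYND8 knockdown. In the ZMYND8 overexpression libraries the values were -0.03 and -0.03 for CAGAATG and -0.06 and -0.06 for GAATATA. For CAGAATG this difference of medians was larger in the KD control libraries than in the knockdown libraries, and the reason was not tested. The genes with CAGAATG by themselves had medians of 0.03 and 0.06 in KD control and -0.06 and -0.05 in ZMYND8 knockdown.

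Promoters were searched for 6 short motifs on both strands, from 250 bases before to 50 after the RefSeq start (GRCh38.p14). TGANTCA, which covers the AP-1 site TGAGTCA of factors such as FOS and JUN and the related TGAATCA, was present in 23 of 164 promoters of genes called higher (14%), 5 of 79 called lower (6.33%) and 4.61% of all 11716 promoters. TGAGTCA alone, searched for after these values were seen, was present in 17 (10.4%), 4 (5.06%) and 3.07%. The GC box GGGCGG was less frequent in the genes called higher, at 45.7% against 64.6% of those called lower and 68.8% of all. The other motifs were at 12.8%, 7.59% and 9.82% for AGGTCA, a nuclear receptor motif, in the same order, and at 3.66%, 5.06% and 3.31% for the CRE TGACGTCA. For the E-box CACGTG the shares were 6.71%, 3.80% and 9.72%, and for CCAAT 32.3%, 39.2% and 36.5%. Among the named genes that rose, ODAPH, CPA4 and F3 each hold 2 copies of TGANTCA. Shown in capitals are the copies with the AP-1 letters TGAGTCA or its reverse complement, while the other copy in ODAPH and F3 and those in NCKAP5, RO60 and ANKRD1 have the TGAATCA form.
CPA4, chr7:130293102-130293130, plus strand: ttttgaggactTGAGTCActctcagactc
CPA4, chr7:130293135-130293163, plus strand: taaatacagctTGACTCAgccactgtatg
ODAPH, chr4:75556009-75556037, plus strand: caggctgctggTGACTCAccagctcccct
IVL, chr1:152908412-152908440, plus strand: gatgcctgtggTGAGTCAggaaggggtta
F3, chr1:94541952-94541980, minus strand: aatcactggggTGAGTCAtcccttgcagg
CSF1R, chr5:150113382-150113410, minus strand: ccaggtccaggTGAGTCAtgatcaggccc
LINC01173, chr2:234682554-234682582, plus strand: tcataagcctgTGAGTCAgctgggggcct
Of the AP-1 and immediate early genes themselves, 26 were tested, 5 rose (19.2%, beside 13.4% of all genes) and 2 fell. Without KD control replicate 2 1 rose and 0 fell, and without KD control replicate 1 3 rose and 0 fell. JUN and JUNB rose by 0.25 and 0.21 on the log2 scale, FOSL1 by 0.67, and FOS fell by 0.39.

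The study followed neuronal and pluripotency genes by qRT-PCR in ZMYND8 knockdown or knockout cells of several kinds, and their RNA was looked up here together with that of MAP2 and NES, which code for further marker proteins of neurons and stem cells. LAMA1, a laminin chain, had 48 and 62 counts in KD control and 105 and 131 in ZMYND8 knockdown, a log2 fold change of 1.15 (SE 0.21, adjusted p = 0.0028). SCN2A, a neuronal sodium channel, had 5719 and 6348 against 4903 and 4929 and fell by 0.25, but did not pass the test without KD control replicate 2 (adjusted p = 0.058). DRD2, the dopamine D2 receptor (246 and 223 against 149 and 180), MAP2, a dendritic microtubule protein (7261 and 8396 against 6429 and 6949), and TUBB3, neuronal tubulin (206 and 195 against 217 and 150), did not pass the test, with adjusted p of 0.054, 0.063 and 0.80. MAPT, which encodes tau, had 0 and 12 counts in KD control and 1 and 6 in ZMYND8 knockdown, too few to test, and 98.8% of its exonic 31-base sequences also lie on an alternate contig. NEUROG1 and POU5F1 had 0 counts in all 4 libraries and NANOG at most 5. REST, the repressor of neuronal genes (12287 and 13364 against 13227 and 13442), SOX2 (177 and 178 against 171 and 158) and NES (47071 and 47048 against 46995 and 47877) did not pass the test, with log2 fold changes of 0.11, -0.06 and 0.06.

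**Figure D4:**
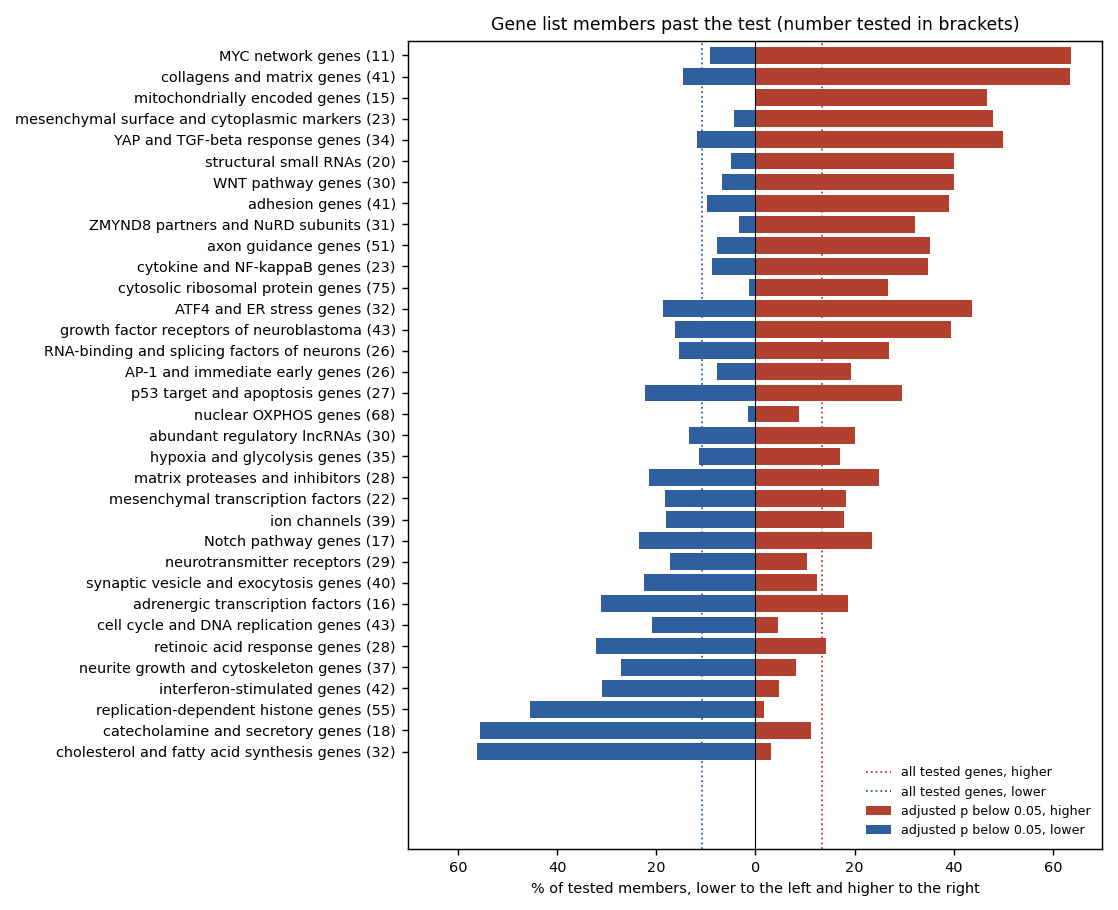
For each gene list with at least 10 tested members, the bars give the % of tested members that were higher (red, right) or lower (blue, left) in ZMYND8 knockdown at an adjusted p below 0.05. The dotted lines give the same for all 19789 tested genes, 13.4% higher and 10.8% lower. The collagens and matrix genes reach 63.4% higher, and the cholesterol and fatty acid synthesis genes 56.3% lower.

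Genes of the extracellular matrix rose more often than they fell. For this and all later lists, the shares among all tested genes were 13.4% higher and 10.8% lower. Of 41 tested collagens and matrix genes, 26 rose and 6 fell, with a median log2 fold change of 0.39, and 20 to 25 rose when 1 library was left out. COL11A1, a fibrillar collagen chain, had 2860 and 3236 counts in KD control and 8339 and 8480 in ZMYND8 knockdown, a log2 fold change of 1.51 (SE 0.054). COL6A3, a chain of microfibrillar collagen VI, had 2194 and 2063 against 5172 and 4522, a log2 fold change of 1.24. LOX, which crosslinks collagen, had 828 and 801 against 1878 and 1769, a log2 fold change of 1.21. The proteoglycan DCN (81 and 103 against 150 and 268) and the laminin chain LAMA2 (15 and 23 against 43 and 42) were also called higher. DCN moved from 1.23 to 0.76 in the weakest fit with 1 library left out. POSTN was the 1 called decrease of the list. Of 28 matrix proteases and inhibitors 7 rose and 6 fell, with 4 rising without KD control replicate 2, and SERPINI1, the serpin neuroserpin, had 429 and 442 counts against 157 and 191, a log2 fold change of -1.27.

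Of 34 tested YAP and TGF-beta response genes, 17 rose and 4 fell, with a median of 0.25. TGFB2, a TGF-beta ligand, had 2215 and 2374 counts in KD control and 5240 and 4998 in ZMYND8 knockdown, a log2 fold change of 1.21 (SE 0.053), with 22.7% of its exon bases shared with a gene of the same strand. F3, tissue factor, had 277 and 269 against 599 and 560, a log2 fold change of 1.13. The 4 members that fell included ID1, ID2 and ID3, targets of BMP signalling chosen here after their values were seen, with log2 fold changes of -0.35, -0.40 and -0.36. Of 41 adhesion genes 16 rose and 4 fell, with 2 falling without KD control replicate 2. ITGB8, an integrin chain that activates latent TGF-beta, had 820 and 876 against 2539 and 2405 counts, a log2 fold change of 1.59 (SE 0.066). TENM2, a teneurin, had 26 and 22 against 47 and 50.

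The mesenchymal surface and cytoplasmic markers moved with the matrix genes, whereas the mesenchymal transcription factors did not move one way. Of 23 markers 11 rose and 1 fell, among them VIM, the intermediate filament vimentin (46202 and 45589 against 62966 and 59982, log2 fold change 0.47), the membrane-binding ANXA2 (0.60), CAV1 of caveolae (0.55) and the actin-binding TPM1 (0.57). Of 22 transcription factors 4 rose and 4 fell, with 2 falling without KD control replicate 1. YAP1 had 5470 and 5579 counts against 7682 and 7976, a log2 fold change of 0.55, and WWTR1, its paralog TAZ, rose by 0.36. PRRX1, a homeobox factor of the mesenchymal state, had 6801 and 7151 against 3473 and 3363 and fell by 0.98 (SE 0.049, adjusted p = 8.13e-07), close to the threshold. SNAI2 fell by 0.41 and SIX4 by 0.38. PRRX1, SNAI2 and SIX4 each hold CAGAATG once in the 3′UTR. In all, 8 of the 22 transcription factors hold it, beside 17.6% of all genes, so it is not limited to the 4 that fell.

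Catecholamine and secretory genes leaned the other way, whereas adrenergic transcription factors moved in both directions. Of 18 tested catecholamine and secretory genes 10 fell and 2 rose, with a median of -0.26, with 5 without KD control replicate 2, 6 without ZMYND8 knockdown replicate 1 and up to 11 in the other refits. DBH, which converts dopamine to noradrenaline, had 1933 and 2352 counts in KD control and 1047 and 1227 in ZMYND8 knockdown, a log2 fold change of -0.86 (SE 0.093, adjusted p = 1.02e-04). The neuropeptide VIP fell by 0.59, and the granins CHGB and SCG2 by 0.49 and 0.37. MAOA, which breaks catecholamines down, rose by 0.35. CHGA had 27 and 135 counts in KD control and 156 and 146 in ZMYND8 knockdown and did not pass the test. Of 16 adrenergic transcription factors 5 fell (31.25%) and 3 rose (18.75%), both above the shares of all tested genes, so this list did not move one way. Its median was -0.18, and it ranged from -0.25 to -0.11 when 1 library was left out. TBX2 and GATA2 fell by 0.55 and 0.51, PHOX2A by 0.37 and HAND2 by 0.25, whereas SOX11, KLF7 and SATB1 rose by 0.48, 0.38 and 0.27.

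**Figure D5:**
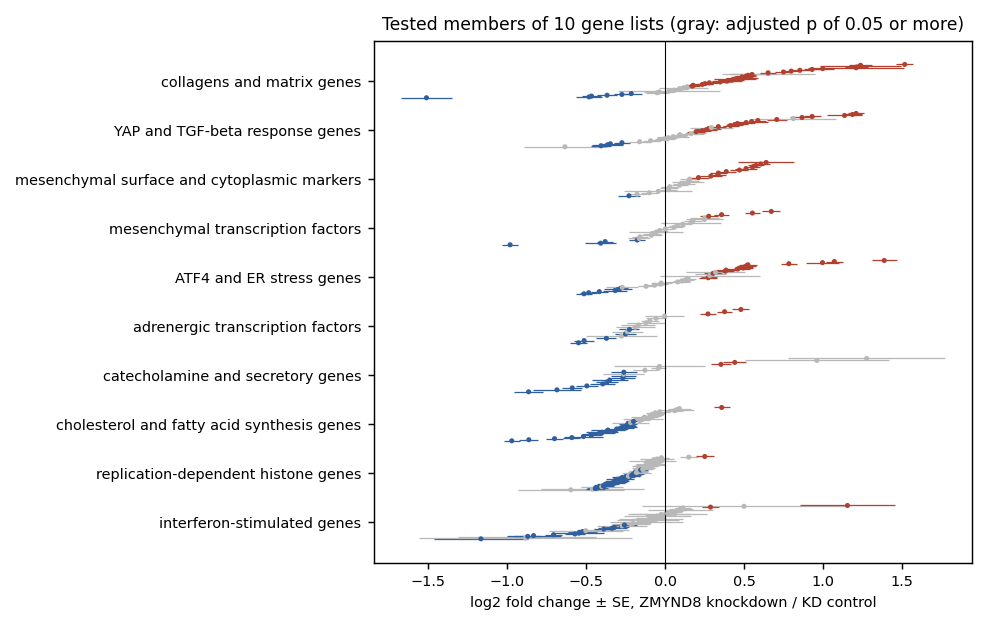
Each point is 1 tested member of the list named on the y axis, with its log2 fold change in ZMYND8 knockdown against KD control and its SE as a line, red or blue where the adjusted p was below 0.05 and gray otherwise. Most matrix genes lie right of 0, with POSTN alone at -1.51, and most genes of cholesterol synthesis and histones lie left of 0 at smaller values.

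Many cholesterol and fatty acid synthesis genes fell, by less than 2-fold. Of 32 tested, 18 fell, 1 rose and 13 did not pass the test, with a median of -0.24, and 13 to 17 fell when 1 library was left out. None was called. FADS2, a fatty acid desaturase, had 14222 and 14376 counts in KD control and 7140 and 6982 in ZMYND8 knockdown, a log2 fold change of -0.97 (SE 0.050, adjusted p = 9.81e-07). IDI1, which isomerizes isoprenoid units, fell by 0.86, TM7SF2, a sterol reductase, by 0.70, and SCD, the stearoyl-CoA desaturase, by 0.59. ACLY, which supplies cytosolic acetyl-CoA, rose by 0.36.

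Stress response genes moved in both directions. Of 32 ATF4 and ER stress genes 14 rose and 6 fell. PSAT1, of serine synthesis, had 2170 and 2236 counts against 4535 and 4404, a log2 fold change of 1.07 (SE 0.052), and STC2, a secreted glycoprotein, 647 and 607 against 1603 and 1565, a log2 fold change of 1.39 (SE 0.080). ATF4 itself rose by 0.38, while HERPUD1, XBP1 and DNAJB9, of the ER unfolded protein response, fell by 0.51, 0.48 and 0.42. These 4 were chosen after their values were seen. Of 27 p53 target and apoptosis genes 8 rose and 6 fell. PMAIP1, a proapoptotic BH3 protein, rose by 0.88, whereas SESN1, a stress-induced p53 target, fell by 0.88, BCL2 by 0.57 and ZMAT3 by 0.52.

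Among replication-dependent histone genes and cell cycle genes, more fell than rose, by small amounts, and most did not pass the test. Of 55 histone genes 25 fell and 1 rose, with a median of -0.19, with 13 without KD control replicate 2 and 19 to 30 in the other refits. H3C2 had 8147 and 8673 counts in KD control and 6083 and 6197 in ZMYND8 knockdown, a log2 fold change of -0.40. Of 43 cell cycle and DNA replication genes 9 fell and 2 rose, but only 3 fell without KD control replicate 2 and 6 without ZMYND8 knockdown replicate 1. CCNA2, cyclin A2, fell by 0.50 and MKI67, a marker of cycling cells, by 0.36, whereas CCNE1 and CCND1, cyclins of G1, rose by 0.42 and 0.20. Of the 11 MYC network genes tested 7 rose and 1 fell, with 4 rising without KD control replicate 2. MYC had 629 and 594 against 1035 and 949 counts, a log2 fold change of 0.75, and its partner MAX fell by 0.44.

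Of 42 interferon-stimulated genes 13 fell and 2 rose, with 8 falling without KD control replicate 2. IFI44L had 58 and 110 counts in KD control and 38 and 34 in ZMYND8 knockdown, a log2 fold change of -1.16 that moved to -0.67 in the weakest fit with 1 library left out. HLA-C was called higher (21 and 17 against 43 and 39), with 95.5% of its exonic 31-base sequences also on an alternate contig. Of 23 cytokine and NF-kappaB genes 8 rose and 2 fell, against 4 and 3 without KD control replicate 2. IL1B, the inflammatory cytokine interleukin 1 beta, had 23 and 31 against 89 and 126 counts, a log2 fold change of 2.04 (SE 0.26). PTGS2, the inducible cyclooxygenase, went the other way with 224 and 200 against 87 and 94, a log2 fold change of -1.18 (SE 0.17).

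Of 28 retinoic acid response genes 9 fell and 4 rose, and the median was 0.04. Without KD control replicate 1 4 fell and 1 rose, and without KD control replicate 2 8 fell and 1 rose. RDH10, the enzyme that oxidizes retinol on the way to retinoic acid, had 8238 and 8230 counts in KD control and 3430 and 3428 in ZMYND8 knockdown, a log2 fold change of -1.22 (SE 0.050, adjusted p = 3.62e-07). RARRES2, which encodes chemerin, had 67 and 43 against 26 and 21, a log2 fold change of -1.18 that moved to -0.79 in the weakest fit. CYP26A1, the retinoic acid-degrading enzyme that ATRA induces, had a log2 fold change of 0.03 and did not pass the test. Both groups had ATRA, so the response to it was not measured.

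Growth factor receptors also rose more often than they fell. Of 43 tested genes of this group 17 rose and 7 fell. NTRK3, the receptor of neurotrophin 3, had 125 and 134 counts in KD control and 439 and 405 in ZMYND8 knockdown, a log2 fold change of 1.75 (SE 0.13). KIT, the stem cell factor receptor, had 39 and 49 against 105 and 123, a log2 fold change of 1.42. CSF1R, the related receptor of macrophage colony-stimulating factor, had 32 and 37 against 103 and 110, a log2 fold change of 1.67, while the leukocyte markers PTPRC, CD3E, CD14 and SPI1 had at most 9 counts. PECAM1, an adhesion molecule of endothelium, had 58 and 57 against 24 and 27, a log2 fold change of -1.12. RET, the receptor of GDNF family ligands, chosen after its values were seen, fell by 0.53.

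In signalling and guidance, 18 of 51 axon guidance genes rose and 4 fell, and the called members were the semaphorins SEMA7A (1064 and 878 against 2416 and 2125) and SEMA3B (484 and 441 against 970 and 921), with log2 fold changes of 1.27 and 1.08. Of 30 WNT pathway genes 12 rose and 2 fell, with 5 rising without KD control replicate 2. WNT2B rose by 0.67, and the receptor FZD4 had 822 and 879 against 445 and 410 counts and fell by 0.94. Of 17 Notch pathway genes 4 rose and 4 fell, or 2 and 2 without KD control replicate 1 and 3 and 2 without KD control replicate 2, and MFNG, a glycosyltransferase that modifies Notch, was called higher at low counts (14 and 15 against 36 and 26).

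Neuronal lists held small changes in both directions, beside 13.4% higher and 10.8% lower among all tested genes. The shares for ion channels were 17.95% higher and 17.95% lower, and for neurotransmitter receptors 10.3% and 17.2%, near those of all genes. Of 40 synaptic vesicle and exocytosis genes 9 fell and 5 rose (5 and 2 without KD control replicate 2, 9 and 3 without KD control replicate 1, 7 and 3 without ZMYND8 knockdown replicate 1), with SNAP25 of the fusion machinery at -0.45 and RAB3B at 0.48. Of 37 neurite growth and cytoskeleton genes 10 fell and 3 rose (11 and 0 without KD control replicate 1, 15 and 1 without ZMYND8 knockdown replicate 2), with the neurofilament NEFL at -0.39 and MAP1B at 0.24. Of 39 ion channels 7 rose and 7 fell, with 3 falling without KD control replicate 2, 4 without ZMYND8 knockdown replicate 1 and 11 without ZMYND8 knockdown replicate 2, and CACNA2D3, a calcium channel subunit, had 10 and 3 counts against 46 and 36, a log2 fold change of 2.68 (SE 0.46). Of 29 neurotransmitter receptors 3 rose and 5 fell, or 1 and 3 without KD control replicate 2, and GRM8, a glutamate receptor, had 43 and 34 against 15 and 13, a log2 fold change of -1.40. Of 26 neuronal RNA-binding and splicing factors 7 rose and 4 fell, with 2 falling without KD control replicate 2. LIN28B, which blocks let-7 maturation, had 542 and 559 against 1252 and 1229, a log2 fold change of 1.22 (SE 0.079).

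Among the partners of ZMYND8 and NuRD subunits, 10 of 31 rose and 1 fell, none of them called, and 6 rose and 0 fell without KD control replicate 2. The histone demethylases KDM5A and KDM1A rose by 0.35 and 0.26, the methyl-CpG binding MBD2 by 0.35 and ZNF532, a zinc finger partner, by 0.26, and RCOR1 fell by 0.18. Of 75 cytosolic ribosomal protein genes 20 rose and 1 fell, with 3 rising without KD control replicate 2 and 35 without ZMYND8 knockdown replicate 1. Of 15 mitochondrially encoded genes 7 rose and 0 fell, with 1 and 14 rising in the same refits, so both counts rested on single libraries. Of 68 nuclear OXPHOS genes 6 rose (8.82%, below the 13.4% of all genes) and 1 fell, with 0 rising without KD control replicate 2, 11 without ZMYND8 knockdown replicate 1, and 1 rising and 5 falling without ZMYND8 knockdown replicate 2. Of 35 hypoxia and glycolysis genes 6 rose (17.1%) and 4 fell (11.4%), near the 13.4% and 10.8% of all tested genes. PFKFB3, a regulator of glycolysis, fell by 0.76 on the log2 scale (6412 and 6259 against 3610 and 3625).

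Of 20 tested structural small RNAs 8 rose and 1 fell, with 3 rising when KD control replicate 1 or 2 was left out and 5 or 12 without a ZMYND8 knockdown library. RNU1-2 (16 and 14 against 60 and 79) and RNU1-4 (15 and 17 against 46 and 57) are near-identical copies of the U1 gene with 76.9% of their sequence also on an alternate contig, so their log2 fold changes of 2.25 and 1.73 and that of RNVU1-7 are uncertain. Of 30 abundant regulatory lncRNAs 6 rose and 4 fell, with 2 falling without KD control replicate 2 and 7 without ZMYND8 knockdown replicate 1. H19, an imprinted lncRNA, had 31 and 67 counts against 111 and 90, a log2 fold change of 1.09 that ranged from 0.66 to 1.71 without 1 library.

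The effect of ZMYND8 overexpression was compared in 1 fit of all 8 libraries, as overexpression against parental cells minus knockdown against KD control. The 2 comparisons share no library. The difference passed the test, at an adjusted p below 0.05, in 49.0% of 22619 genes and in 60 of 71 named called genes. The 71 were called by their knockdown effect, which is part of this difference. A higher share among them was thus set in part by that choice and says nothing about overexpression. Log2 fold changes given here for overexpression come from a fit of its own 4 libraries. The median overexpression value was -0.33 over the 181 genes with a 3′UTR called higher in knockdown and -0.30 over the 91 called lower. The genes below are examples. LPP had a log2 fold change of 1.43 in knockdown and -2.09 in overexpression. For COL6A3 the values were 1.24 and -4.64, for TGFB2 1.21 and -2.72 and for SERPINB7 1.99 and -2.82. Other genes were higher in both, such as NCKAP5 (3.62 and 1.95), COL11A1 (1.51 and 1.17) and LAMA1 (1.15 and 4.92). KCNAB1 was lower in both, at -1.66 and -2.10, as were NTS, at -1.64 and -4.92, and DRAM1, at -1.33 and -2.28. BHLHA15 was lower in knockdown, at -1.54, and higher in overexpression, at 1.65. For POSTN (-1.51 and -1.70) and PTGS2 (-1.18 and -1.75) the difference did not pass the test, with adjusted p of 0.28 and 0.12. The overexpression experiment used other cells and Dox, so these cannot be told apart from the level of ZMYND8.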

How the data were processed

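The authors sequenced rRNA-depleted total RNA in 8 libraries of SK-N-SH cells. Their methods give trimming by Trim_Galore with removal of reads under a Phred score of 25, alignment by HISAT2 to GRCh38, and counting per gene by featureCounts on GENCODE release 28. The authors deposited raw counts without normalization. The strand setting is not given in the sources used here. Of 60662 lines in the table, 3 belonged to a gene split over several lines and were left out. GENCODE release 44 gave symbols for 60462 of 60659 genes, and coordinates are those of the table.

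After filterByExpr and TMM normalization, the 4 libraries were compared by the two-sided quasi-likelihood test of edgeR 4.0.16 in R 4.3.3, with limma 3.58.1 loaded and with Benjamini-Hochberg adjustment over all tested genes. The thresholds are those of the methods, with a log2 fold change of 1 read for the stated fold and an adjusted p in place of p. SE is the standard error of a log2 fold change. Named were ZMYND8, the neuronal and pluripotency genes of the study, and the 8 called genes with the highest counts each way. Called members of each list, or up to 4 each way, were named too. The 12 largest increases and decreases and 5 lncRNAs each way came from called genes with a mean above 100. These also had to show no overlap between the groups. Their fold had to stay at 2 or more in the same direction in every fit without 1 library. The comparison, members and lists were chosen with earlier results of these data known. DESeq2 (version 1.42.0) was an alternative. Heptamers were counted in the 3′UTR of the canonical GENCODE transcript. Scripts were tested on simulated data. Replicate numbers were not used as a batch in the main fit. With 2 samples a group the p-values rest on a spread pooled over genes.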

Additional observations from a re-analysis of the deposited data

How the results depend on the processing

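The 388 calls (270 higher, 118 lower) became 386 with RLE normalization, 383 with upper quartile normalization, 311 without a filter on low counts, 380 with all 8 libraries in 1 fit and 368 without genes mostly on alternate contigs, an alternative chosen after seeing the data. DESeq2 called 270 genes, of which 268 were among the 388, and gave 71 lower, while 80 of the 388 had no adjusted p from it. A mean above 100 left 174 calls (122 higher, 52 lower), and no threshold on fold gave 4707 (2602 higher, 2105 lower). Leaving out 1 library gave 343 to 462 calls, 245 to 283 higher and 98 to 182 lower, with 278 to 329 shared with the 388. The 2 fits that left out a knockdown library, replicate 1 or 2, gave 182 and 179 lower genes. With the replicate number as a block there were 393 calls, 380 of them shared. The block raised the counts of some lists: 35 of 55 histone genes fell and 2 rose, and 18 of 43 cell cycle genes fell and 3 rose. The deviations of same-numbered replicates correlated at 0.071, which is low but cannot exclude a shared batch. ZMYND8 kept its direction and an adjusted p below 0.05 in every alternative run. Among other named genes, TUBB3 changed sign, from -0.37 to 0.16 over the fits without 1 library. DRD2 and MAP2 passed the test with the block, with upper quartile normalization and without knockdown replicate 2, and MAP2 also without KD control replicate 1, while SCN2A did not pass it without KD control replicate 2. A group left with 1 library was assumed to vary like the other, and 2 libraries a group limit the precision throughout.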

Other observations

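Some changes followed position in the genome. Over windows of 40 neighbouring protein-coding genes with a mean above 20, the lowest median log2 fold change was -0.27, on chromosome 19 from 57454790 to 58512413, where 36 of 40 genes had a negative value and 16 fell at an adjusted p below 0.05. It was -0.26 on chromosome 5 from 140841187 to 141512981, which holds the clustered protocadherins, and -0.20 on chromosome 6 from 26020451 to 27135291, which holds histone genes. Among ZNF-named genes, the zinc finger repressors, 69 of 226 on chromosome 19 fell and 5 rose, with a median of -0.18, against 38 fallen and 17 risen of 222 elsewhere, with a median of -0.07. Of 46 clustered protocadherin genes, which give neurons a surface identity, 8 fell and 0 rose, with a median of -0.27. Their exons are in part shared between family members, so single values are uncertain. The highest window median was 0.20, on chromosome 5 from 147880726 to 154420984. By chromosome, medians ranged from -0.06 (chromosome 19) to 0.06 (chromosome 18). These windows were picked as extremes after the values were seen, and no test was made of them.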
